A study of Homo sapiens with 6 samples.

Results

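Chromosomes 4, 13 and 18 are gene-poor human chromosomes, and their accessible regions are described here with and without depletion of NuMA in HCT116, a widely used line of human colon cancer cells. The members are all regions on these 3 chromosomes after the peak lists of 6 ATAC-seq libraries were merged wherever peaks shared at least 1 bp. They number 5226 of 58926 merged regions (8.87%), with 2732 on chromosome 4, 1352 on chromosome 13 and 1142 on chromosome 18. ATAC-seq cuts and tags accessible DNA with a transposase, and a peak is a place where the authors' caller found more fragments than in its surroundings. The samples were 3 libraries of HCT116 cells with genotype and treatment given as NuMA depletion, and 3 of wild-type HCT116 cells. The titles of the NuMA-depleted samples carry the term AID, which the labels do not explain. The labels do not give the duration of the depletion, and they leave unsaid whether the replicates were cultured separately. The p-values therefore measure the spread between these libraries only, which may be technical.

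In the interphase nucleus each chromosome occupies a territory of its own. Gene-poor chromosomes, with 4, 13 and 18 among them, lie towards the nuclear periphery in many cell types, where the nuclear lamina binds long domains of mostly silent, late-replicating chromatin. Gene-rich chromosomes such as 19 and 22 tend to lie inside. Accessible regions are mostly promoters, enhancers and sites of insulator proteins, so they are rare in long stretches without active genes. NuMA is a large nuclear protein that organises the poles of the mitotic spindle and, in interphase, is counted among the proteins of the nucleoskeleton. The title of the series links it to chromatin architecture.

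The lists held 21783 to 45892 peaks, and NuMA-depleted replicate 3 had the shortest and NuMA-depleted replicate 2 the longest. Read totals are not part of these files. Relative depth was estimated from folds and p-values, with the mean of the 6 libraries set to 1. The estimate assumes that the smallest peak width of a list is its fragment length. It was 1.07, 1.21 and 1.11 in NuMA-depleted replicates 1 to 3 and 0.975, 0.869 and 0.762 in wild-type replicates 1 to 3. By this estimate the NuMA-depleted libraries were all deeper. The peak numbers in each file ran without a gap from 1 to the length of the list, so no row was lost after the peaks were numbered. All peaks lay on the autosomes and the X chromosome. What was filtered before the numbering is not known, also for the stretches without peaks described here.

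Regions on chromosomes 4, 13 and 18 were sparse. Merged regions numbered 14.3 per Mb on chromosome 4, 14.2 on chromosome 13 and 14.7 on chromosome 18, measured from the first to the last region of the chromosome. These are ranks 3, 2 and 4 from the lowest of the 23 chromosomes, and only the X chromosome, with 7.65 per Mb, lay lower. The other 20 chromosomes together had 20.8 regions per Mb, and chromosomes 19 and 22 had 38.3. The 3 chromosomes make up 12.4% of the spanned length, 8.87% of the regions and 6.90% of the 19970 protein-coding genes in RefSeq (GRCh38.p14, used for the gene number only).

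Gene number fell further below length than region number did. RefSeq lists 769 protein-coding genes on chromosome 4, 338 on chromosome 13 and 270 on chromosome 18, so the label gene-poor holds. There were 3.55, 4.00 and 4.23 merged regions per protein-coding gene on chromosomes 4, 13 and 18, against 2.89 on the other 20 chromosomes and 1.87 on chromosomes 19 and 22. Chromosome 18 had the highest such ratio of the 23 chromosomes, and the X chromosome the lowest, with 1.37. Chromosomes 13 and 4 ranked 4 and 6 from the highest. Chromosomes 8 (4.08) and 10 (4.06) lay above both, and chromosome 14 (3.67) lay above chromosome 4. A high ratio was thus not particular to chromosomes 4, 13 and 18. Of the gene-rich pair only chromosome 19 was low, with 1.55, while chromosome 22 had 2.89.

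The low density was present in every library. NuMA-depleted replicates 1, 2 and 3 called 3199, 3875 and 1820 peaks on the 3 chromosomes, or 8.80, 10.7 and 5.01 per Mb. Wild-type replicates 1, 2 and 3 called 3053, 3203 and 2698 peaks, or 8.40, 8.81 and 7.42 per Mb. The order of the libraries followed the length of their lists, and the groups overlapped. The density was 0.649 ± 0.0102 times (SD, n = 6) that of the other 20 chromosomes in the same library, with a range of 0.640 to 0.667. On the log2 scale the difference was -0.62 ± 0.0226 (SD, n = 6), lower in 6 of 6 libraries, with p = 0.03125 in an exact sign-flip permutation test over libraries, two-sided, and an adjusted p of 0.03125 over 4 such contrasts (Benjamini-Hochberg). This is the smallest p that 6 libraries allow. It speaks for the repeatability over libraries of 1 genome, not for other cell lines.

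**Figure D1:**
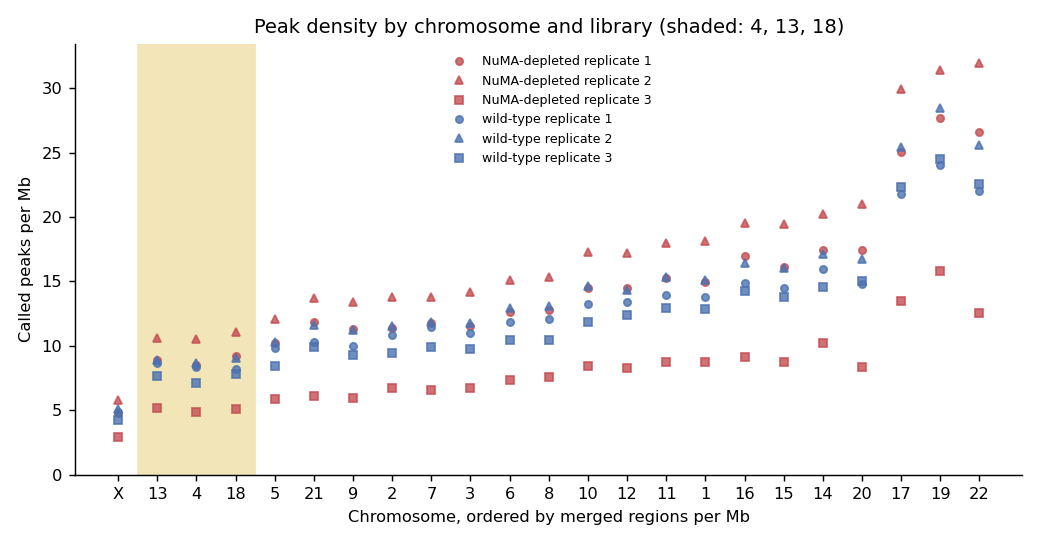
Called peaks per Mb (vertical axis) on each of the 23 chromosomes (horizontal axis, ordered by merged regions per Mb). Each point is 1 library, red for NuMA-depleted and blue for wild-type, and shading marks chromosomes 13, 4 and 18, which follow the X chromosome at the low end; peaks there numbered 5.01 to 10.7 per Mb for the 3 chromosomes together.

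Peaks also lay further apart. The median gap from the end of a peak to the start of the next on the 3 chromosomes was 40.0, 33.9 and 69.9 kb in NuMA-depleted replicates 1, 2 and 3, and 45.7, 42.4 and 49.4 kb in wild-type replicates 1, 2 and 3. In the same libraries the other 20 chromosomes had medians between 23.3 and 48.8 kb. Within a library the gap was 1.498 ± 0.0578 times as long (SD, n = 6) on the 3 chromosomes, longer in 6 of 6 libraries (adjusted p = 0.03125, exact sign-flip permutation test, two-sided). Gaps of 100 kb or more made up 26.7% ± 6.66 (SD, n = 6) of all gaps there and 17.4% ± 5.92 (SD, n = 6) elsewhere, again more in 6 of 6 libraries (p = 0.03125, adjusted over 6 added contrasts 0.0375, exact sign-flip permutation test). Closely spaced peaks did not follow this pattern. Gaps under 1 kb made up 2.85% ± 0.617 (SD, n = 6) on the 3 chromosomes and 2.99% ± 0.746 (SD, n = 6) elsewhere, higher in 3 libraries and lower in 3 (p = 0.34375, same exact test).

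The 3 chromosomes differed in how much of their span lay in long stretches without regions. Over the merged regions of all 6 libraries, stretches of at least 1 Mb without any region numbered 10 on chromosome 4, 11 on chromosome 13 and 11 on chromosome 18. They took up 13.6% of the span of chromosome 4, 26.3% of chromosome 13 and 34.8% of chromosome 18, against 20.03% on the other 20 chromosomes. Chromosome 18 thus ranked 4 from the highest of the 23 chromosomes by this share and chromosome 13 ranked 6, while chromosome 4 ranked 5 from the lowest. The spans are not quite alike, since whatever lies before the first region is left out. That region starts at 20138798 on chromosome 13, at 467454 on chromosome 4 and at 109297 on chromosome 18. The other 20 chromosomes include stretches of 21.1 Mb on chromosome 1 and 20.8 Mb on chromosome 9. Centromeres and assembly gaps were not taken out. The median gap between merged regions was longest on chromosome 4 of the 3, at 28.6 kb, with 24.7 kb on chromosome 13 and 24.1 kb on chromosome 18, against 18.8 kb elsewhere.

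Empty bins of 1 Mb followed the same order. Of 189 bins on chromosome 4, 16 (8.47%) held no region, while 16 of 94 bins on chromosome 13 (17.0%) and 16 of 77 bins on chromosome 18 (20.8%) held none. On the other 20 chromosomes 328 of 2553 bins (12.8%) held none. The median bin held 12 regions on chromosome 4, 14.5 on chromosome 13, 9 on chromosome 18 and 19 elsewhere. By how the regions were spread over the bins the chromosomes differed less: 50% of the regions lay in 24.3% of the bins on chromosome 4, 22.3% on chromosome 13, 20.8% on chromosome 18 and 23.4% elsewhere. The fullest 10% of the bins held 25.8%, 25.3% and 29.8% of the regions on chromosomes 4, 13 and 18 and 25.8% elsewhere, so only chromosome 18 lay above the others by this measure.

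**Figure D2:**
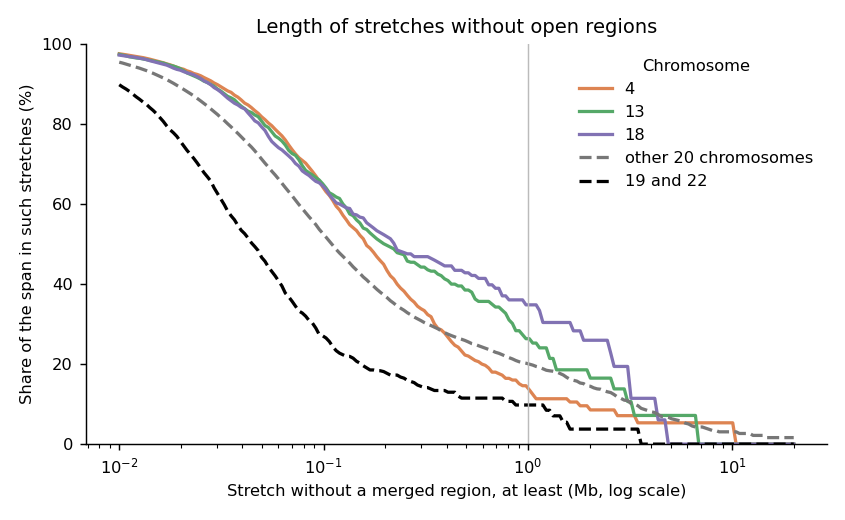
Share of a chromosome's span that lies in stretches without a merged region (vertical axis, %) against the smallest stretch length counted (horizontal axis, Mb, log scale). At 1 Mb (grey line) the share is 13.6% on chromosome 4, 26.3% on chromosome 13, 34.8% on chromosome 18 and 20.03% on the other 20 chromosomes, and the curve of chromosome 4 crosses below that of the other chromosomes.

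The longest empty stretch of the 3 chromosomes lay on chromosome 4 at 58057525 to 68192905 (all positions are on hg19), over 10.1 Mb in which no library called a peak. It was the 6th longest of the genome, and its left border was a 544 bp region called in 3 libraries and its right border a 314 bp region called in 1. The next on chromosome 4 were at 49289696 to 52697248 (3.41 Mb) and at 44728876 to 47464966 (2.74 Mb). The last of these was bordered on both sides by regions called in all 6 libraries, of 1045 and 988 bp. On chromosome 13 the longest was at 53542720 to 60345643 (6.80 Mb), followed by 87776724 to 91067265 (3.29 Mb) and 92059168 to 95068846 (3.01 Mb). On chromosome 18 the longest was at 61662268 to 66381747 (4.72 Mb), followed by 14458882 to 18654772 (4.196 Mb) and 68599675 to 71707919 (3.11 Mb). Which of these stretches hold a centromere or another assembly gap was not analysed here.

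In single libraries the longest stretch of chromosome 4 was hardly longer. The longest gap between neighbouring peaks on chromosome 4 was 10.4, 10.1 and 10.3 Mb in NuMA-depleted replicates 1, 2 and 3, and 10.4, 10.4 and 10.4 Mb in wild-type replicates 1, 2 and 3. Over the merged regions, gaps of at least 1 Mb took up 21.5% of the span of the 3 chromosomes. In every library they took up more, with 31.6%, 26.1% and 41.5% in NuMA-depleted replicates 1, 2 and 3. The shares were 30.1%, 29.2% and 32.9% in wild-type replicates 1, 2 and 3. NuMA-depleted replicates 2 and 3 were the lowest and the highest, and the groups overlapped (120 ± 28.3 Mb against 112 ± 6.91 Mb, SD, n = 3 each, p = 0.8, exact permutation test, two-sided).

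The fullest and the emptiest 5 Mb of each chromosome gave the range along it. On chromosome 4 the bin from 5 to 10 Mb held 177 merged regions, against a median of 68 per bin, and the bin from 60 to 65 Mb held none. On chromosome 13 the bin from 110 to 115 Mb held 158, the median 59.5 and the bin from 55 to 60 Mb none. On chromosome 18 the bin from 45 to 50 Mb held 138, the median 69.5 and the bin from 35 to 40 Mb 25. In this last bin NuMA-depleted replicates 1, 2 and 3 called 16, 18 and 4 peaks and wild-type replicates 1, 2 and 3 called 18, 15 and 15, so NuMA-depleted replicate 3 was low and the other 5 libraries were close to each other.

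Regions that stood alone were more often called in a single library. Of the 5226 members, 247 (4.73%) had no other merged region within 100 kb, against 2.01% of the regions on the other 20 chromosomes. These isolated members had a median width of 466 bp, 12.6% of them were called in all 6 libraries and 38.5% in a single library. Isolated regions elsewhere had 19.8% and 38.2%, so the high single-library share was not particular to these 3 chromosomes. Of the 2166 members with a neighbour under 10 kb away, 25.4% were called in all 6 and 28.7% in 1, against 28.6% and 24.4% elsewhere, and their median width was 526 bp. The 2813 members between these distances had 26.7% and 27.2%, against 30.2% and 24.6% elsewhere. The regions are not replicates, so no test was made of these shares. The most isolated member of each chromosome was called in 1 library only: on chromosome 4 at 73161760 to 73162051 (fold 8.60, NuMA-depleted replicate 2), on chromosome 13 at 85053699 to 85054067 (fold 6.96, NuMA-depleted replicate 2) and on chromosome 18 at 27420214 to 27420546 (fold 5.40, NuMA-depleted replicate 1). The fold is the authors' enrichment over the caller's local background, and it belongs to each list on its own scale.

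Some isolated members were nevertheless called everywhere. On chromosome 13 the region at 38923092 to 38924525, 1434 bp wide, lay 1274 kb after its left and 565 kb before its right neighbour. Its folds were 9.96, 9.71 and 10.3 in NuMA-depleted replicates 1, 2 and 3 and 12.1, 12.9 and 10.02 in wild-type replicates 1, 2 and 3, so it was among the strongest of that chromosome as well as the most isolated in all 6. On chromosome 18 the region at 39534926 to 39535622 followed an empty stretch of 1834 kb, with folds from 7.01 to 12.2. On chromosome 4 the region at 131484480 to 131485358 preceded an empty stretch of 1046 kb, with folds from 6.40 to 8.94. The folds of both groups overlapped at the regions of chromosomes 4, 13 and 18 named here.

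Among the members called in all 6 libraries, the strongest were taken by their lowest −log10 q over the libraries. On chromosome 18 the region at 14132091 to 14132706 had folds of 15.4, 14.4 and 16.7 in NuMA-depleted replicates 1, 2 and 3 and of 13.3, 17.1 and 13.3 in wild-type replicates 1, 2 and 3. It ranked above 99.7% of the peaks in every list. On chromosome 4 the region at 83205847 to 83206562 had 13.2, 9.70 and 11.4 in NuMA-depleted and 11.1, 11.5 and 13.1 in wild-type replicates 1, 2 and 3. The next were on chromosome 4 at 166248098 to 166249105 (folds 7.44 to 12.1), on chromosome 13 at 50017907 to 50019179 (9.12 to 11.03) and on chromosome 18 at 73120445 to 73121408 (9.14 to 13.1). At the last of these regions NuMA-depleted libraries had 9.65 ± 0.455 and wild-type libraries 11.8 ± 1.70 (SD, n = 3 each), with overlap between the groups. No list of artefact-prone regions was applied.

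Widths were slightly smaller than elsewhere. Median peak width on the 3 chromosomes was 449, 522 and 437 bp in NuMA-depleted replicates 1, 2 and 3 and 434, 425 and 460 bp in wild-type replicates 1, 2 and 3. The other 20 chromosomes had 462, 537 and 444 bp, and 447, 434 and 469 bp, in the same order. The difference was -11.1 ± 3.04 bp (SD, n = 6), narrower in 6 of 6 libraries (adjusted p = 0.03125, exact sign-flip permutation test, two-sided). On average it was smaller among the stronger peaks, with -4.58 bp at a −log10 q of at least 5 (p = 0.28125) and -1.58 bp at equal numbers of peaks (p = 0.78125, same exact test). At equal numbers the libraries differed in direction. Peaks on the 3 chromosomes were wider in wild-type replicates 1 (575 against 554 bp) and 2 (568 against 559 bp). They stayed narrower in wild-type replicate 3 and in NuMA-depleted replicates 1, 2 and 3. Without chromosome 18 it was -7.50 bp (p = 0.0625, same exact test). The widest members called in all 6 libraries were 2527 bp on chromosome 4 at 57842782 to 57845308, 2606 bp on chromosome 13 at 37572907 to 37575512 and 2212 bp on chromosome 18 at 33766682 to 33768893. The first of these lay shortly before the longest empty stretch. At the third the folds were 6.27, 6.56 and 6.09 in NuMA-depleted and 8.85, 7.80 and 7.49 in wild-type replicates 1, 2 and 3, so the groups did not overlap at this region. By list percentile of the fold, 6.11% of all regions called in all 6 libraries were likewise lower in every NuMA-depleted library, and nothing is read from 1 such region among those named.

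Folds were slightly higher than elsewhere, over a lower local background. The median fold on the 3 chromosomes was 7.15, 6.82 and 6.25 in NuMA-depleted replicates 1, 2 and 3 and 6.76, 7.54 and 7.02 in wild-type replicates 1, 2 and 3. It exceeded that of the other 20 chromosomes by 0.181 ± 0.0222 (SD, n = 6), in 6 of 6 libraries (adjusted p = 0.03125, exact sign-flip permutation test, two-sided). The local background recovered for each peak, in multiples of the smallest background of its list, had a median of 1.89 ± 0.144 (SD, n = 6) on the 3 chromosomes and 2.36 ± 0.193 elsewhere. It was 0.802 ± 0.0117 times as high within a library, lower in 6 of 6 (p = 0.03125, adjusted 0.0375, exact sign-flip permutation test). The fragment pileup at the summit, in the same multiples, was also lower, at 0.886 ± 0.0184 times (SD, n = 6; p = 0.03125, adjusted 0.0375, same exact test). A higher fold on these chromosomes thus came with fewer fragments at the summit and still fewer in the surroundings. Copy number, base composition and mappability of the surroundings were not tested.

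Chromosome 13 had the highest fold ranks of the 3 in all 6 lists. Its peaks stood on average at list percentile 53.6, 54.2 and 54.9 of the fold in NuMA-depleted replicates 1, 2 and 3 and at 53.6, 52.7 and 54.6 in wild-type replicates 1, 2 and 3. Chromosome 18 stood at 49.8, 51.1 and 49.4, and at 51.9, 51.5 and 50.4, and was the lowest of the 3 in all 6 lists. The other 20 chromosomes stood at 49.9, 49.8 and 49.8, and at 49.7, 49.8 and 49.8, in the same order. Chromosome 18 thus lay below them in NuMA-depleted replicates 1 and 3, so the higher fold rank of the 3 chromosomes together did not hold for it in every list.

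A smaller part of the members was called in all 6 libraries than of the regions elsewhere. All 6 libraries called 1334 members (25.5%, 95% Wilson interval 24.4% to 26.7%, which covers counting error only), and 15675 regions (29.2%) on the other 20 chromosomes. A single library called 1482 members (28.4%), against 24.8% elsewhere, and 2 to 5 libraries called 2410 (46.1%), against 46.0%. Chromosome 4 had the lowest share in all 6 libraries (24.7%) and the highest share in a single library (29.9%) of the 23 chromosomes. Chromosome 18, with 25.4% in all 6, ranked 3 from the lowest, and chromosome 13, with 27.2%, ranked 5. Chromosome 20 ranked 2 and chromosome 22, which had the most regions per Mb, ranked 4. The X chromosome, which had the fewest regions per Mb, ranked 16. A low share in all 6 was thus not particular to chromosomes 4, 13 and 18, and it did not follow sparseness. Members called in all 6 were wide, with a median of 934 bp, and those called in 1 were narrow, with 294 bp, close to the 912 and 297 bp elsewhere. Regions are not replicates, and these shares were compared by size only.

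**Figure D3:**
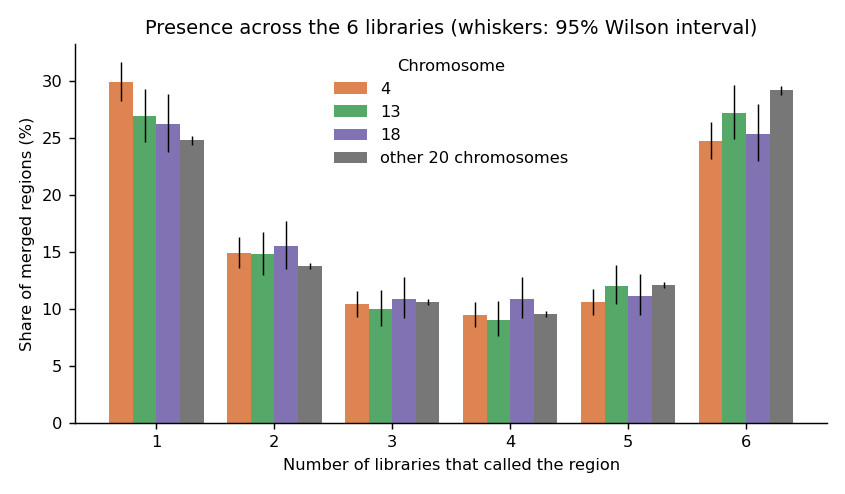
Share of merged regions (vertical axis, %) called in 1 to 6 libraries (horizontal axis) on chromosomes 4, 13 and 18 and on the other 20 chromosomes; whiskers are 95% Wilson intervals. The bars of chromosomes 4 and 18 lie below that of the other chromosomes at 6 libraries (24.7% and 25.4% against 29.2%), and the bar of chromosome 4 lies above it at 1 library (29.9% against 24.8%).

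By library, NuMA-depleted replicates 1, 2 and 3 called 60.2%, 73.9% and 34.3% of the 5226 members, and wild-type replicates 1, 2 and 3 called 57.4%, 60.1% and 50.8%. All 6 shares were lower than those of the other regions, which were 64.8%, 78.0% and 36.6%, and 59.2%, 64.6% and 54.7%. NuMA-depleted replicate 3 alone missed 397 members (7.60%), the most of any library, against 8.80% of the regions elsewhere. Wild-type replicate 3 alone missed 80 (1.53%), against 1.37% elsewhere.

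Members called in 1 library only were unevenly spread over the libraries. NuMA-depleted replicates 1, 2 and 3 had 238, 528 and 49 of their own, and wild-type replicates 1, 2 and 3 had 276, 252 and 139. In wild-type replicate 1 they made up 5.28% of the members, against 3.54% of the regions elsewhere, a ratio of 1.49. The ratios in wild-type replicates 2 and 3 were 1.03 and 1.16, and those in NuMA-depleted replicates 1, 2 and 3 were 1.09, 1.06 and 1.53, the last from only 49 regions. In wild-type replicate 1 chromosomes 4, 18 and 13 ranked 2, 3 and 4 of the 23 chromosomes by this share, after the X chromosome (6.10%). These peaks were weak, with a median −log10 q of 3.93 and a median fold of 4.74, the same fold as in that library's own regions elsewhere. Wild-type replicate 1 also had 12.9% of its peaks on the 3 chromosomes at the smallest background of the list, where the other 5 libraries had 6.56% to 9.37%. It was the highest on the other 20 chromosomes too, with 6.86% against 3.48% to 4.75%, so this trait was not particular to chromosomes 4, 13 and 18. What sets this library apart was not tested.

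**Figure D4:**
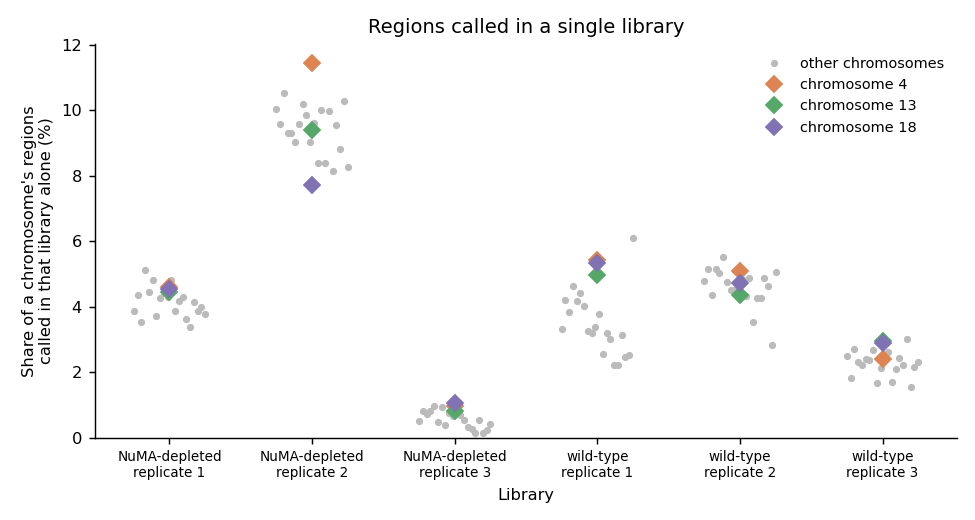
Share of a chromosome's merged regions that were called in 1 library alone (vertical axis, %), for each of the 6 libraries (horizontal axis); coloured diamonds are chromosomes 4, 13 and 18 and grey points the other 20. In wild-type replicate 1 the 3 diamonds lie near the top of the chromosomes, together 5.28% against 3.54% elsewhere, and in NuMA-depleted replicate 2 chromosome 4 is the highest and chromosome 18 the lowest.

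Turning to NuMA depletion, the share of a list that fell on the 3 chromosomes did not separate the groups. It was 8.32%, 8.44% and 8.36% in NuMA-depleted replicates 1, 2 and 3 and 8.60%, 8.28% and 8.30% in wild-type replicates 1, 2 and 3. Wild-type replicate 1 was the highest and the other 5 lay between 8.28% and 8.44%. The means were 8.37% ± 0.0653 and 8.39% ± 0.179 (SD, n = 3 each), a difference of -0.0216 percentage points (p = 1, two-sided exact permutation test). In a design of 3 and 3 libraries the exact p cannot go below 0.10, so this test could not have passed 0.05. Without wild-type replicate 1 the difference turned to 0.0815 percentage points (p = 0.2, same exact test), and without NuMA-depleted replicate 1 to 0.00611. By chromosome, the share was 4.29% ± 0.0661 against 4.31% ± 0.155 on chromosome 4, 2.22% ± 0.0320 against 2.25% ± 0.0658 on chromosome 13, and 1.86% ± 0.0326 against 1.84% ± 0.0394 on chromosome 18 (NuMA-depleted against wild-type, SD, n = 3 each), with p = 0.9, 0.7 and 0.6 (exact permutation test, all adjusted p = 0.9).

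Width, spacing and fold rank of the 3 chromosomes' peaks also overlapped between the groups. Median width was 469 ± 46.0 bp in NuMA-depleted and 440 ± 17.9 bp in wild-type libraries (SD, n = 3 each, p = 0.4, adjusted over 4 tests 0.8, exact permutation test). Without NuMA-depleted replicate 2, whose list has the widest smallest peak, 264 bp, the difference fell from 29.8 to 3.50 bp, and among peaks of at least that width in every list it was 1.17 bp (p = 0.9, same exact test). The median gap was 48.0 ± 19.3 kb against 45.8 ± 3.46 kb (SD, n = 3 each, p = 1, exact permutation test). The sign of that difference rested on NuMA-depleted replicate 3, the shortest list: without it the difference, NuMA-depleted minus wild-type, was -8.84 kb (p = 0.1, the smallest that 2 against 3 allows, exact permutation test). The mean list percentile of the fold was 52.0 ± 0.423 against 52.3 ± 0.328 (SD, n = 3 each, p = 0.4, adjusted 0.8, exact permutation test).

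**Figure D5:**
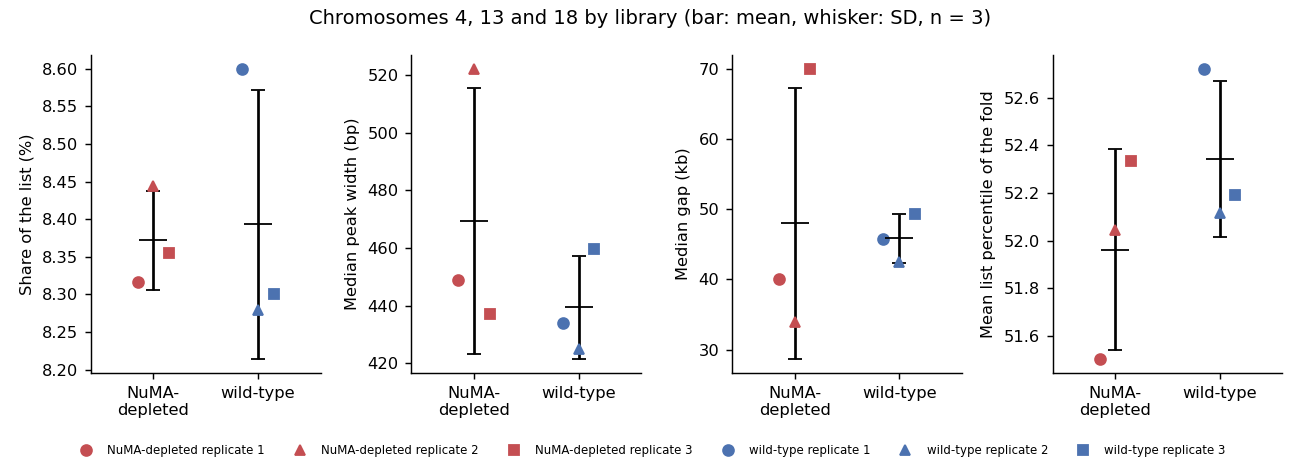
Values of the 3 chromosomes together in each library: share of the list (%), median peak width (bp), median gap between neighbouring peaks (kb) and mean list percentile of the fold. Points are libraries, bars the group means and whiskers the SD (n = 3); axes do not start at 0. The groups overlap in all 4 panels, with wild-type replicate 1 high in the first (8.60%), NuMA-depleted replicate 2 high in the second (522 bp) and NuMA-depleted replicate 3 high in the third (69.9 kb).

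Few members were called in every library of one group and in none of the other. In all 3 NuMA-depleted and no wild-type library there were 38 members (0.727%), where the share over all merged regions was 0.625%. They split into 22 on chromosome 4 (0.805%), 7 on chromosome 13 (0.518%) and 9 on chromosome 18 (0.788%). In all 3 wild-type and no NuMA-depleted library there were 40 members (0.765%), where the share over all merged regions was 0.592%. Of these, 28 were on chromosome 4 (1.02%), 7 on chromosome 13 (0.518%) and 5 on chromosome 18 (0.438%). Both shares of the 3 chromosomes together are near the background. By chromosome, from few regions, the wild-type-only share was above it on chromosome 4 and below it on chromosomes 13 and 18. The NuMA-depleted-only share was above it on chromosomes 4 and 18 and below it on chromosome 13. Absence from a list means a signal under the caller's threshold, not closed chromatin. Leaving out a library loosens the rule. Without NuMA-depleted replicate 3, the library with the fewest peaks, the NuMA-depleted count rose to 245. Only NuMA-depleted replicates 1 and 2 called 207 members (3.96%), against 3.94% of all merged regions. The wild-type count rose to 140 without NuMA-depleted replicate 2, the longest list. Only that library and all 3 wild-type libraries called 100 members (1.91%), against 1.57% of all merged regions. At equal numbers of peaks the counts were 36 and 22, and the shares over all regions were not counted there.

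The NuMA-depleted-only members had moderate folds. Their widths ran from 288 to 994 bp with a median of 566 bp, and the median of their mean folds was 6.38. The strongest, on chromosome 18 at 57382979 to 57383484, had folds of 10.1, 9.87 and 8.35 in replicates 1, 2 and 3, and stood at list percentiles 89.3, 91.1 and 86.7. The region on chromosome 13 at 78711737 to 78712277 had folds of 8.87, 8.15 and 9.005 and lay 386 and 520 kb from its neighbours. The others of the 6 strongest were on chromosome 18 at 8121990 to 8122753 and 12606817 to 12607586, and on chromosome 4 at 145955571 to 145956449 and 103548882 to 103549501. Over these 6 regions single folds ran from 6.45 to 10.1.

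The wild-type-only members were of like strength, with widths from 280 to 1120 bp (median 492 bp) and mean folds with a median of 6.29. The strongest, on chromosome 13 at 25688386 to 25688764, had folds of 8.24, 13.4 and 8.66 in replicates 1, 2 and 3, so replicate 2 stood above the others. The next, on chromosome 4 at 79464520 to 79465268, had 9.27, 6.45 and 6.06. The others of the 6 strongest were on chromosome 13 at 106622013 to 106622516 and 109430093 to 109430727, and on chromosome 4 at 92609118 to 92609879 and 123764162 to 123764562. Of these, the region at 92609118 followed an empty stretch of 623 kb. Its folds were 7.25, 6.75 and 8.90 in wild-type replicates 1, 2 and 3.

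Among the 1334 members called in all 6 libraries, the rank of the fold within each list was set side by side. In 75 members (5.62%) the list percentile was higher in every NuMA-depleted than in every wild-type library, where the share over all regions called in all 6 was 5.9%. In 96 members (7.20%) it was lower in every NuMA-depleted library, where that share was 6.11%. Both shares are near the background. The median difference in percentile, NuMA-depleted minus wild-type, was -1.98 points over the members, with 80% of them between -18.5 and 12.96, and -0.736 points on the other 20 chromosomes. By library the median percentile of these members was 71.2, 75.8 and 63.3 in NuMA-depleted replicates 1, 2 and 3. In wild-type replicates 1, 2 and 3 it was 73.4, 73.0 and 70.1. NuMA-depleted replicate 3, the shortest list, was thus the lowest and NuMA-depleted replicate 2 the highest. Replicate 3 was also the lowest on the other 20 chromosomes, with 56.9. Ranks in lists of unlike length are not on one scale, and this comparison was added after the data were seen.

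Peak density along the 3 chromosomes did not differ detectably between the groups. Of 206 bins of 1 Mb with a mean of at least 5 peaks, 0 passed an adjusted p of 0.05 by limma fitted over all 2022 bins of the genome, where the share called was also 0%. The smallest adjusted p was 0.872. At an unadjusted p under 0.05 there were 16 member bins (7.77%), 6 higher and 10 lower in NuMA-depleted libraries, against 5.64% of all bins. The bin with the smallest p among the members, chosen after its value was seen, was on chromosome 4 from 153 to 154 Mb. It held 14, 16 and 6 peaks in NuMA-depleted replicates 1, 2 and 3 and 8, 8 and 6 in wild-type replicates 1, 2 and 3. Its log2 difference in share of peaks was 0.65 (SE 0.199, adjusted p = 0.872 by limma), and the raw numbers overlapped between the groups. With bins of 5 Mb, 7 of 70 member bins (10%) had an unadjusted p under 0.05 by limma, against 5.09% of all bins. All 7 were lower in NuMA-depleted libraries, but the direction over all bins of the genome was not counted, so nothing is read from it. Of these bins, 0 passed the adjustment (smallest adjusted p = 0.825 by limma).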

How the data were processed

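ATAC-seq was deposited as 1 peak list per library, 3 NuMA-depleted and 3 wild-type. The submitters' processing notes name the build hg19 and, as tools, Bowtie2 (version 2.4.1), Picard and Trim Galore. Peak names record a macs2 folder, per the deposited files. The sources used here do not give the caller's version or settings, read filters or transposase shift. Each peak carries, in the deposited lists, its fold over local background (a linear ratio), its −log10 p-value and −log10 q-value, and a score that was not used. The smallest −log10 q was 2.00, which sets the authors' limit near a q of 0.01.

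From these, peaks sharing 1 bp were merged. Pileup and local background were solved from the fold and the Poisson p-value (whole-number pileup within 0.01 in over 99.9% of peaks of each library). The smallest background divided by the smallest width gave relative depth, assuming that this width is the fragment length. Groups were compared with exact permutation tests, the 3 chromosomes with the other 20 by exact sign flips over 6 libraries, and 1 Mb bins by limma 3.58.1 in R 4.3.3 (log2 share of peaks, pseudocount 0.5, mean trend, Benjamini-Hochberg), tested on simulated data. Python 3.11.15, numpy 2.4.6, pandas 2.3.3 and scipy 1.17.1 served for the rest.

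The members and lists were chosen with earlier results of these data known. Regions were named by rule: per chromosome the 2 strongest, the widest and the most isolated in all 6 libraries, the most isolated in any number of libraries, the 3 longest empty stretches and the extreme 5 Mb bins, and the 6 strongest group-only members each way. A genome or annotation of hg19 was not used here, so no sequence or gene is given for a region. The alternatives tried were equal numbers of peaks, a stricter −log10 q minimum of 5, other chromosome sets, widths, gaps and windows, leaving out each library, and a replicate block.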

Additional observations from a re-analysis of the deposited data

How the results depend on the processing

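Density, gap and fold of the 3 chromosomes against the other 20 kept their direction under every alternative run. They kept p = 0.03125 (exact sign flips) except when a library was left out, where 5 libraries allow no exact p below 0.0625. Leaving out each library, the log2 density difference ran from -0.63 to -0.62, that of the gap from 0.57 to 0.60, the fold difference from 0.175 to 0.187 and the width difference from -11.9 to -10.3 bp. The width difference missed the threshold at a −log10 q of at least 5 (-4.58 bp), at equal numbers of peaks (-1.58 bp) and without chromosome 18 (-7.50 bp, chosen after seeing the data); the cause was not tested. Between the groups, leaving out each library gave differences from -0.0784 to 0.0815 percentage points in share, 3.50 to 46.0 bp in width, -8.84 to 9.16 kb in gap and -0.570 to -0.153 in fold percentile. At equal numbers the gap difference turned to -3.45 kb. Members of one group only numbered 280 (NuMA-depleted) and 175 (wild-type) when 2 of 3 libraries sufficed, and 22 wild-type-only at equal numbers. Of the 280, NuMA-depleted replicates 1 and 2 alone called 207 (3.96%, against 3.94% of all merged regions). Replicates 2 and 3 alone called 24 (0.459% against 0.368%) and replicates 1 and 3 alone 11 (0.21% against 0.102%). Of the 175, wild-type replicates 1 and 2 alone called 67 (1.28% against 1.06%). Wild-type replicates 2 and 3 alone called 36 (0.689% against 0.737%) and replicates 1 and 3 alone 32 (0.612% against 0.453%). Leaving out each library, which loosens the rule, gave 49 to 245 and 44 to 140. For the totals under these alternatives the shares over all regions were not counted, so nothing is read from these totals about the members. The share called in all libraries was 31.1% at equal numbers, 24.2% with 500 bp windows on summits, and 27.2% to 33.4% with 5 libraries. No member bin passed limma under any alternative (0 throughout). Replicate numbers are shared by the groups, but same-numbered libraries did not deviate together (r of -0.0771, 0.0923 and 0.00668 over 2022 bins), so the block rests on a number only. With the replicate block the differences were the same (-0.0216, 29.8, 2.14 and -0.382) with exact p of 1, 0.75, 1 and 0.75, where 3 pairs allow none below 0.25, and 0 member bins passed. Depth in reads is unknown, and by the estimate of relative depth the NuMA-depleted libraries were all deeper.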

Other observations

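At equal numbers of peaks, the strongest 21783 of each list, the median gap on chromosomes 4, 13 and 18 was 76.4, 75.6 and 69.9 kb in NuMA-depleted replicates 1, 2 and 3 and 77.1, 78.2 and 77.04 kb in wild-type replicates 1, 2 and 3. The groups did not overlap (exact permutation p = 0.1, two-sided, the smallest 3 against 3 allows). NuMA-depleted replicate 3, whose list is complete at that number and reaches down to a −log10 p of 4.43 where the others stop at 10.9 to 17.1, stood apart, and replicate 1 was only just below the wild-type libraries. On the other 20 chromosomes the gaps were 48.1 ± 0.712 kb in NuMA-depleted and 48.3 ± 0.843 kb in wild-type libraries (SD, n = 3 each, exact p = 0.7). The difference between both sets of chromosomes, as the log2 ratio of their median gaps, was 0.62 ± 0.0881 against 0.68 ± 0.0331 (SD, n = 3 each, exact p = 0.4), with overlap.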
